A study of Mus musculus with 41 samples.

Results

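Fast inhibition and fast excitation in the brain run through receptors built from the genes described here, the subunits of GABA-A receptors and of the ionotropic glutamate receptors. They were taken as all genes with a protein-coding transcript whose symbol matches the subunit families *Gabra*, *Gabrb*, *Gabrg*, *Gabrd*, *Gabre*, *Gabrp*, *Gabrq*, Gria, *Grin1* to *Grin3* and Grik, leaving out *Gabra6* and *Grin2c*, which mark mature granule cells. This gave 30 genes of the 22438 with ribosome footprint counts, namely 15 GABA-A, 4 AMPA, 6 NMDA and 5 kainate receptor subunits. Values are given for 27 of them, 12 GABA-A subunits and all of the other 3 families, and counts of subunits below are over these 27. The rule uses symbols and annotation, not measured values.

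Ribosome profiling, which sequences the mRNA fragments that translating ribosomes protect, had been done on 3 tissues, and RNA was sequenced from fibroblasts. The cerebella were from C57BL/6J mice at postnatal day 14, with 3 Tg(Atoh1-Cre); *Hbs1l* cKO mice, which carry *Hbs1l* fl/- and *n-Tr20* B6J/B6J according to the methods, and 3 controls that carry the same Tg(Atoh1-Cre) with *Hbs1l* +/+. This Cre acts in granule cell precursors, so the other cells of a mutant cerebellum keep one functional allele, and each replicate was 1 cerebellum. The embryos were C57BL/6NJ at embryonic day 8.5, with 3 *Hbs1l* -/- and 3 wild-type replicates, each a pool of embryos. The mouse embryonic fibroblasts (MEFs) were tamoxifen-treated C57BL/6 cells that all carry CAG-Cre ER, with *Hbs1l* cKO, *Pelo* cKO or *Upf2* cKO alleles or with none, all of them *n-Tr20* B6J/B6J according to the methods, and each replicate came from a single embryo. Footprints were taken from 3 replicates per MEF genotype, each with 3 control libraries of its own pool, and RNA from 3 replicates per genotype except for 2 of *Pelo*. HBS1L and PELO together release ribosomes that are stuck on an mRNA, and UPF2 acts in nonsense-mediated decay, the breakdown of mRNAs with early stop codons.

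GABA-A receptors are chloride channels made of 5 subunits, usually alpha, beta and gamma or delta, and the alpha subunit changes as neurons mature and sets how the channel behaves. AMPA receptors carry the fast current at glutamate synapses, NMDA receptors pair an obligatory GRIN1 with GRIN2 or GRIN3 subunits and admit calcium, and kainate receptors tune release and excitability. In the cerebellum, maturing granule cells are known to gain *Gabra6* and to trade *Grin2b* for *Grin2a* and *Grin2c*, while *Gabra2* and *Gabra3* belong to earlier stages.

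Of the 12 GABA-A genes reported, 9 lie close to others of these 12. In GRCm38, *Gabrg1*, *Gabra2*, *Gabra4* and *Gabrb1* share chr5:70751047-72149037. *Gabrg3* and *Gabra5* lie at chr7:56716465-57510059, and the cluster of *Gabre*, *Gabra3* and *Gabrq* spans chrX:72255999-72842602. *Gabrd* is at chr4:155384980-155398112, *Gabrp* at chr11:33550781-33578959 and *Gabrb2* at chr11:42419757-42629028.

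A footprint is short, so identical stretches in related subunits limit which gene it can be given to. In 28-base windows of coding sequence, 1.13% of the windows of *Gria1*, 2.54% of *Gria2*, 1.88% of *Gria3* and 1.97% of *Gria4* occurred in another gene, mostly in one of the other AMPA subunits. The share was 0.265% to 0.584% for the kainate subunits, 0.698% for *Gabre*, 0.023% to 0.158% for *Grin2a*, *Grin2b* and *Grin2d*, and 0 for the other 14 genes. The stretch below is shown because it is shared by all 4 AMPA genes. It is 35 bases long, printed in capitals, with 20 bases on either side in lower case, from the transcripts of the Gencode M21 annotation of GRCm38, each 5′ to 3′ on the mRNA strand:
Gria1: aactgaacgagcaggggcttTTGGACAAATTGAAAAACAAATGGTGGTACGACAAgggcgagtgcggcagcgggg
Gria2: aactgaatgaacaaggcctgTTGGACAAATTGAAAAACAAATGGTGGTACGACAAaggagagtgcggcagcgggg
Gria3: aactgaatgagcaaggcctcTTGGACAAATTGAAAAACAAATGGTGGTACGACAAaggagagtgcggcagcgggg
Gria4: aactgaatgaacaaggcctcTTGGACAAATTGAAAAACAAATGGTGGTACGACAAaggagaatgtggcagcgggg

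The capitals lie at chr11:57309815-57309849 (plus strand) in *Gria1*, chr3:80691354-80691388 (minus strand) in *Gria2*, chrX:41654856-41654890 (plus strand) in *Gria3* and chr9:4432807-4432841 (minus strand) in *Gria4*. Each lies within a single coding exon, exon 14 of 16 in the transcripts printed of *Gria1* and *Gria2* and exon 15 of 17 in those of *Gria3* and *Gria4*. It was in 1 of 4 coding transcripts of *Gria1*, 1 of 2 of *Gria2* and 2 of 4 each of *Gria3* and *Gria4*. Of the 40 flanking bases, 33 in *Gria2*, 34 in *Gria3* and 31 in *Gria4* were the same as in *Gria1*. A footprint wholly inside the capitals cannot be assigned to 1 AMPA gene, and values of these genes carry that limit.

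Library totals in coding sequence ran from 10919139 to 22591768 in the cerebella, 2634480 to 7298812 in the embryos, 5782990 to 25607974 for MEF footprints and 22713643 to 86425762 estimated reads for MEF RNA. The targeted gene checked the labels where it could. *Hbs1l* was at 14.5 ± 1.504 CPM (counts scaled to a common library size) in cKO and 40.9 ± 3.55 in control cerebella (SD, n = 3), and at 4.94 ± 3.58 in *Hbs1l* -/- and 54.4 ± 4.99 in wild-type embryos (SD, n = 3). In MEF footprints, *Hbs1l* was at 1.93 against 35.8 CPM in its mutant and *Pelo* at 2.60 against 35.0 CPM in its own. *Upf2* went the other way in the MEFs labelled *Upf2* cKO, at 115.6 ± 2.90 against 54.2 ± 4.63 CPM in footprints and 45.2 ± 16.6 against 18.03 ± 3.02 CPM in RNA (SD, n = 3), so gene totals do not check that deletion and these libraries are named by their label throughout. Marker sums fitted the tissues: the fibroblast list (collagens and others) reached 47360 to 49890 CPM in the mutant and 44400 to 48060 CPM in the control footprints of the *Hbs1l* MEF pool, and pan-neuronal genes were at 4807 to 4928 CPM in cKO cerebella, 5904 to 6286 in control cerebella and 56.6 to 71.2 CPM in embryos.

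Levels between genes were compared as CPM per kilobase of coding sequence (FPKM). In control cerebella the beta subunit *Gabrb2* was at 284 ± 5.99 FPKM (SD, n = 3) and the obligatory NMDA subunit *Grin1* at 236 ± 38.7. *Gabrb2* was above *Grin1* in all 3 libraries, with no overlap of their values.

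A second tier held *Gabrd*, a subunit of extrasynaptic receptors of granule cells, at 186 ± 67.9 FPKM, and the AMPA subunits *Gria1* at 186 ± 37.0, *Gria4* at 178 ± 46.1 and *Gria2* at 156 ± 23.4. Neighbours in this tier overlapped, and its upper end overlapped *Grin1*. *Gria3* (79.3 ± 22.3) and *Gabra2* (47.9 ± 1.02) were lower and did not overlap the tier or each other.

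The modulatory NMDA subunits were far below *Grin1*, with *Grin3a* at 11.5 FPKM, *Grin2b* at 6.95, *Grin2d* at 6.45 and *Grin2a* at 4.60. Kainate subunits ranged from 7.82 for *Grik4* to 36.2 for *Grik2*. At the low end were *Gabrq* at 1.06, *Grin3b* at 0.792, *Gabre* at 0.429 and *Gabrp*, which had no footprint in a control cerebellum.

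**Figure D1:**
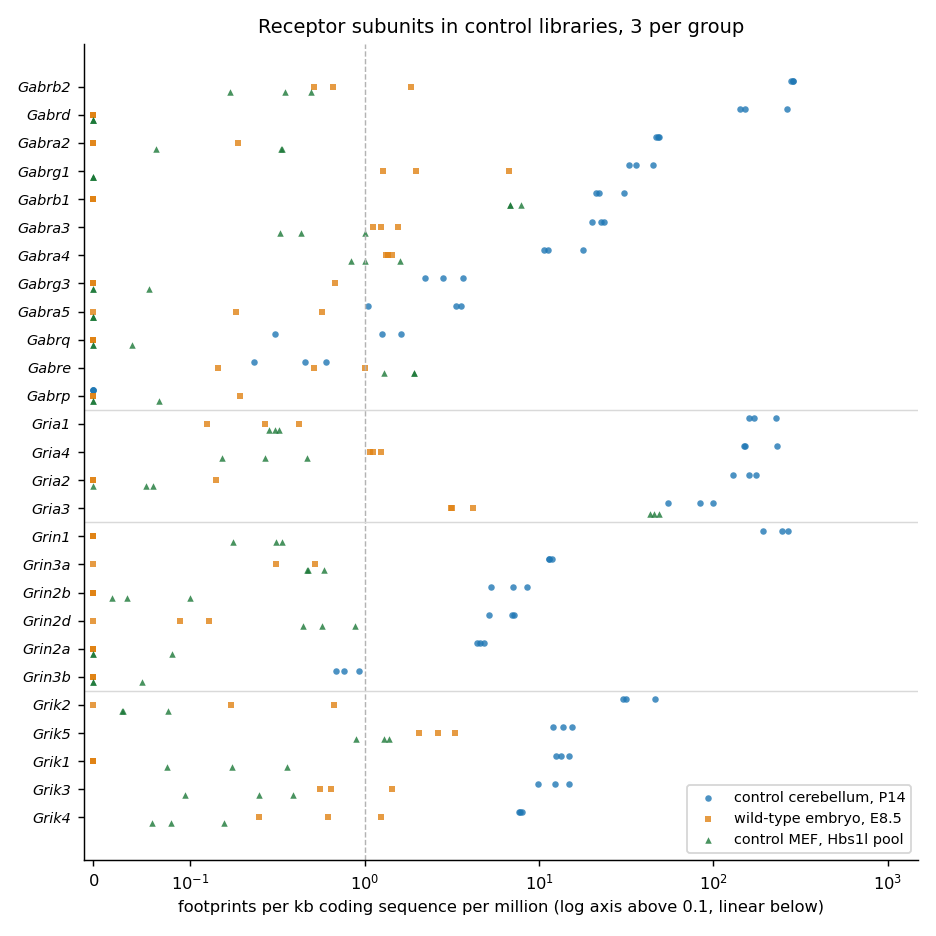
Footprints per kilobase of coding sequence (FPKM, axis logarithmic above 0.1 and linear below) of each of the 27 subunits, with 1 point per library for the 3 control cerebella, 3 wild-type embryo pools and 3 control MEF cultures of the *Hbs1l* pool. The mean of 24 of 27 subunits lies at or above the dashed line at 1 FPKM in cerebella, of 7 in embryos and of 5 in MEFs.

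Outside the cerebellum most subunits had few footprints per kilobase. In wild-type embryos 7 of 27 had a mean of at least 1 FPKM, led by *Gria3* at 3.50, *Gabrg1* at 3.33 and *Grik5* at 2.66. The mean of *Gabrg1* rested on wild-type replicate 2, at 6.72 FPKM against 1.98 and 1.27 in the others. In control MEFs 5 of 27 did in each pool. *Gria3* stood out there at 45.9, 46.4 and 47.1 FPKM in the *Hbs1l*, *Pelo* and *Upf2* pools, and *Gabrb1* followed at 7.19, 6.38 and 7.94. The others were *Gabre*, *Grik5* and *Gabra4*, all between 1.04 and 1.82.

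Control cerebella and wild-type embryos were then set against each other. By edgeR's quasi-likelihood test at an adjusted p of 0.05, 24 of 25 subunits tested were called higher in cerebellum, where 80.2% of all genes were called in either direction. Of these 25, 7 had no embryonic footprint and 5 had 1 to 3 in all, so they passed the filter on low counts through the cerebellum, and nothing is read from that count. Among genes with many embryonic footprints *Gria3* was higher in cerebellum by 4.56 on the log2 scale (SE 0.26, adjusted p = 8.57e-08), *Gabrg1* by 3.46 (SE 0.39, adjusted p = 1.43e-05) and *Grik5* by 2.43 (SE 0.21, adjusted p = 1.68e-06). *Gabre* was not called, at -0.42 (SE 0.63, adjusted p = 0.551), and it was at 0.45 without wild-type embryo replicate 2, where *Gabrg1* was at 4.67.

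No footprint was found in any wild-type embryo for 8 of 27 subunits, 6 more had 1 to 3 in all, and 13 had more. Against 3 counts in each embryo library, *Grin1* was at least 740-fold higher in control cerebella, *Gabrd* at least 267-fold, *Grik1* at least 43.4-fold, *Gabrb1* at least 37.5-fold, *Grin2b* at least 33.0-fold and *Grin2a* at least 21.5-fold. The bounds for *Grin3b* and *Gabrq* were 2.56-fold and 2.18-fold. Tissue, age, strain, batch and the footprint lengths kept differ together here and cannot be told apart.

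Cerebella were profiled in the series to relate ribosome stalling to the defects of *Hbs1l* mutant tissue, and the gene counts of the same libraries are compared here. No subunit was called between cKO and control cerebella by edgeR (quasi-likelihood test, p values adjusted by Benjamini-Hochberg), which called 9 of 14430 genes (0.0624%). At an unadjusted p under 0.05 stood 8 of 26 subunits (30.8%), against 13.4% of all genes tested. DESeq2 called 3.35% of all genes and 2 subunits, namely *Gabra2* (adjusted p = 2.02e-05) and *Gabrb2* (adjusted p = 0.0456). The median log2 fold change was 0.03 over the 26 and 0.00 over all genes tested. In bulk cerebellum fewer cells of a type and less RNA per cell cannot be told apart.

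The groups did not overlap for 6 of the 26 tested subunits. *Gabra2* and *Grin3a* were higher in every cKO cerebellum, where 9.38% of all genes were, and *Gabrb2*, *Gria2*, *Grik1* and *Grin2a* were lower in each, where 8.91% of all genes were.

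*Gabra2*, an alpha subunit known from earlier granule cell stages, was the most uniform, though bulk footprints do not show which cells its values came from. Its footprints were at 104, 100.4 and 100.5 CPM in the cKO cerebella and at 64.9, 66.2 and 63.5 CPM in the controls. The groups were well apart and each varied little, with a log2 fold change of 0.65 (SE 0.10, adjusted p = 0.0766).

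*Gabrb2*, a beta subunit that is abundant in the mature cerebellum, lay on the other side. It was at 338, 362 and 319 CPM in cKO and 441, 425 and 441 CPM in control cerebella (log2 fold change -0.36, SE 0.12, adjusted p = 0.25), and every cKO value was below every control value.

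**Figure D2:**
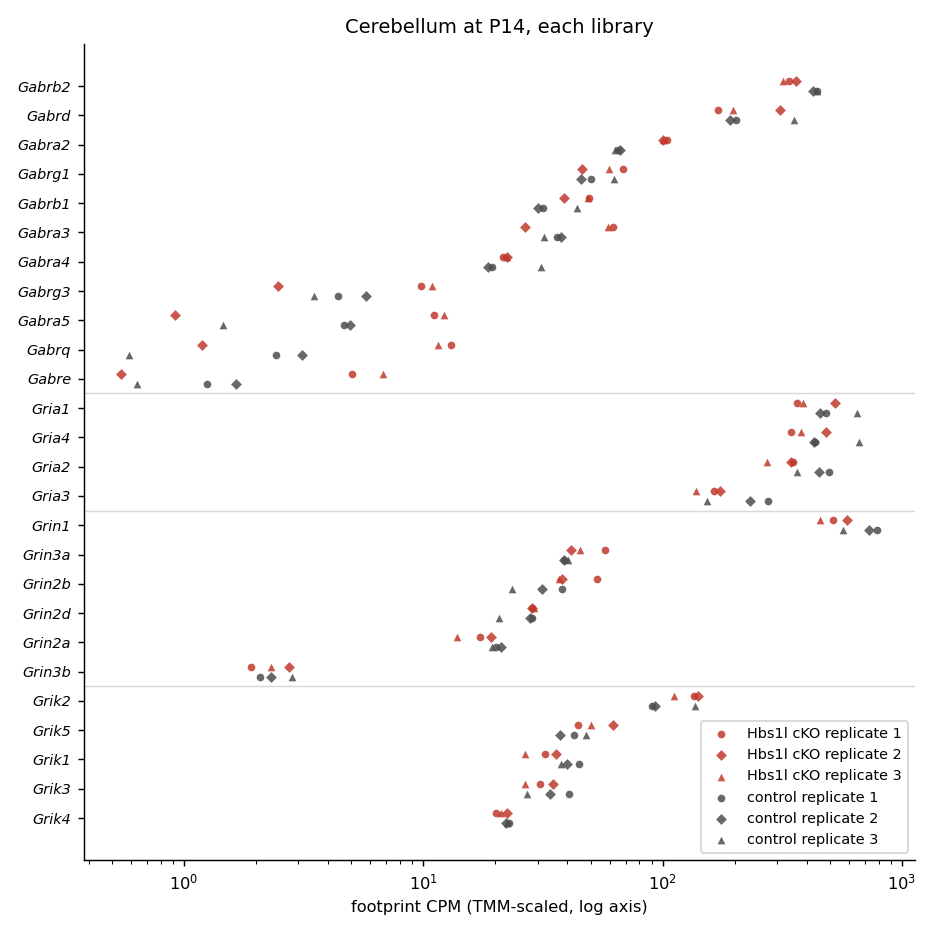
Footprints of the 26 tested subunits in CPM (log axis) in each of the 3 cKO and 3 control cerebella, with the marker shape giving the replicate number. *Gabrb2* is lower and *Gabra2* higher in all 3 cKO libraries, while *Gabra5*, *Gabre* and *Gabrq* are low in cKO replicate 2 alone among the mutants.

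A further set of alpha, gamma, epsilon and theta genes varied widely among the cKO libraries. *Gabra5* was at 11.1, 0.91 and 12.2 CPM in cKO replicates 1, 2 and 3 and at 4.66, 4.95 and 1.45 in the controls. *Gabre* was at 5.04, 0.55 and 6.75 against 1.25, 1.65 and 0.64, and *Gabrq* at 12.99, 1.18 and 11.5 against 2.41, 3.11 and 0.59. In each of them cKO replicates 1 and 3 were high and cKO replicate 2 was at or below most controls.

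*Gabrg3*, at 9.75, 2.46 and 10.9 against 4.41, 5.76 and 3.50 CPM, and *Gabra3*, at 62.3, 26.5 and 59.4 against 36.3, 37.7 and 32.1 CPM, had the same order. The mean of cKO replicates 1 and 3 was 12.8-fold that of cKO replicate 2 for *Gabra5*, 10.8-fold for *Gabre*, 10.4-fold for *Gabrq*, 4.20-fold for *Gabrg3* and 2.29-fold for *Gabra3*. These 5 are the tested subunits whose cKO range exceeded 2-fold, and all of them lie in the groups of neighbouring genes on chromosomes 7 and X. Among the controls 3 subunits exceeded 2-fold, again *Gabrq* (5.27-fold), *Gabra5* (3.41-fold) and *Gabre* (2.60-fold), with control replicate 3 the lowest.

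The log2 fold changes of the 5 over all libraries were 1.18 (SE 0.74) for *Gabra5*, 1.85 (SE 0.71) for *Gabre*, 2.12 (SE 0.79) for *Gabrq*, 0.79 (SE 0.46) for *Gabrg3* and 0.49 (SE 0.28) for *Gabra3*, with adjusted p values from edgeR of 0.301 to 0.54. With any single library left out they kept a positive sign, at 0.76 to 1.68, 1.32 to 2.33, 1.65 to 2.65, 0.46 to 1.18 and 0.29 to 0.78 in the same order. cKO replicate 2 alone, picked after its low values were seen, differed from the controls by -1.995, -1.09, -0.77, -0.89 and -0.41, which restates those values and is no test. *Slc6a4* and *Dbh*, genes of serotonergic and noradrenergic neurons, were high in cKO replicates 1 and 3. The cell bodies of these neurons lie in the brainstem, and both genes were picked after values were seen. *Slc6a4*, the serotonin transporter, was at 21.7, 0.729 and 62.7 CPM in the cKO cerebella and 0.583, 0.33 and 0.681 in the controls. *Dbh*, which makes noradrenaline, was at 20.4, 1.73 and 42.2 CPM against 1.997, 0.755 and 0.727. A list of 18 brainstem and midbrain genes, drawn up after the values were seen, summed to 518.8, 258.1 and 586.9 CPM in cKO and 471.3, 452.4 and 201.9 CPM in control cerebella. Of the 10 listed genes tested by edgeR none was called, and 6 had an unadjusted p under 0.05, all higher, against 13.4% of all genes tested. The part of this list in the results for these 5 subunits was not tested.

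The other GABA-A subunits tested overlapped between groups. *Gabrd*, the tonic-current subunit of granule cells, was at 171, 309 and 197 CPM in cKO and 203, 192 and 356 CPM in control cerebella (log2 fold change -0.15, SE 0.29), and its sign changed when control replicate 3 was left out (0.19). *Gabrb1* had a log2 fold change of 0.37 (SE 0.17), *Gabrg1* of 0.13 and *Gabra4* of -0.07. *Gabrp* had 0.05, 0.09 and 0.04 CPM in the cKO cerebella and none in the controls, and was too low to test, so nothing is read from that order. Over the 11 GABA-A subunits tested, 8 had a positive and 3 a negative fold change, with a median of 0.49. The cKO libraries did not share this. With cKO replicate 2 as the only mutant, *Gabra3*, *Gabra5*, *Gabre*, *Gabrg3*, *Gabrq* and *Gabrg1* turned negative and *Gabrd* positive. That library was picked after its values were seen, so this is no test.

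All 4 AMPA subunits had negative fold changes, with a median of -0.39. *Gria2*, whose edited form keeps calcium out of the channel, was at 350, 345 and 272 CPM in cKO and 495, 450 and 365 CPM in control cerebella (log2 fold change -0.44, SE 0.16, adjusted p = 0.303). *Gria3* was at 164, 174 and 138 against 275, 232 and 153 CPM (-0.47, SE 0.21, adjusted p = 0.382). *Gria1* and *Gria4*, at -0.31 (SE 0.20) and -0.33 (SE 0.21), overlapped more widely. *Gria1* was at 365, 527 and 385 CPM against 482, 455 and 648, and *Gria4* at 345, 483 and 379 against 434, 428 and 659. For both, cKO replicate 2 was above control replicates 1 and 2 and control replicate 3 was the highest library, without which the log2 fold changes were -0.14 and -0.10. In that analysis edgeR called 3.84% of all genes and 2 subunits, *Gabra2* (adjusted p = 0.0219) and *Gria3* (adjusted p = 0.0403).

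**Figure D3:**
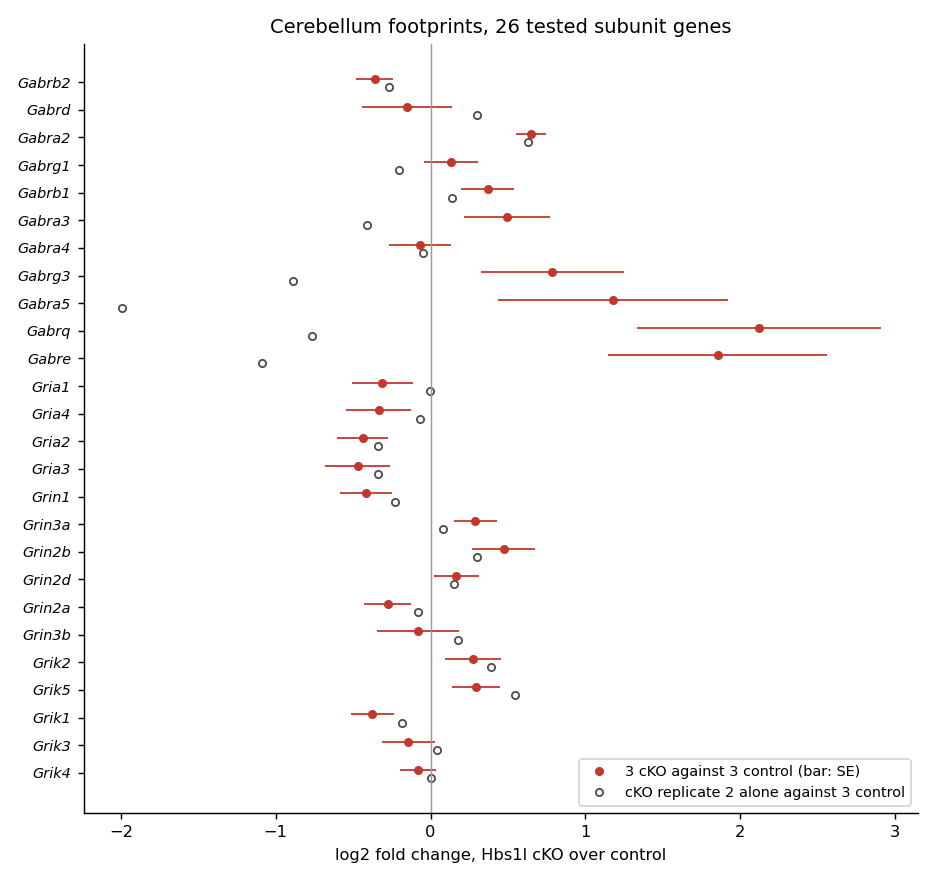
Log2 fold change of footprints, cKO over control cerebellum, for the 26 subunits tested. Filled points are all 3 cKO libraries with their standard error, and open points are cKO replicate 2 alone, picked after its values were seen, against the 3 controls. *Gabra2* at 0.65 and *Gabrb2* at -0.36 keep their side, while *Gabra5*, *Gabre*, *Gabrg3*, *Gabrq* and *Gabra3* cross zero, as do *Gabrg1*, *Gabrd*, *Grik3* and *Grin3b*.

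Among NMDA subunits, the obligatory *Grin1* was at 517, 591 and 453 CPM in cKO and 788, 727 and 568 CPM in control cerebella (log2 fold change -0.42, SE 0.17, adjusted p = 0.339). *Grin2a*, the subunit of mature granule cells, was at 17.3, 19.1 and 13.8 CPM against 20.1, 21.1 and 19.4 (-0.28, SE 0.15, adjusted p = 0.478). *Grin2b*, its predecessor in development, was at 53.1, 38.0 and 36.8 CPM against 37.9, 31.3 and 23.5 (0.47, SE 0.21, adjusted p = 0.371). The values of *Grin2a* were just separate and those of *Grin2b* overlapped. *Grin3a*, a subunit of juvenile receptors, was at 57.2, 41.5 and 45.0 CPM against 38.9, 38.7 and 40.2 (0.29, SE 0.14, adjusted p = 0.408). *Grin2d* and *Grin3b* differed by 0.17 and -0.08.

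Of the kainate subunits, *Grik1* was at 32.1, 35.7 and 26.5 CPM in cKO and 44.5, 40.0 and 37.7 CPM in control cerebella (-0.38, SE 0.14, adjusted p = 0.303). The groups were separate for *Grik1* and overlapped for the rest. *Grik2*, the main kainate subunit of granule cells, had a fold change of 0.27 (SE 0.18), and *Grik5*, an auxiliary-type subunit that needs *Grik1*, *Grik2* or *Grik3* to form a channel, of 0.29 (SE 0.16, adjusted p = 0.454). *Grik3* and *Grik4* were at -0.14 and -0.08.

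A pair of subunits exchanged in maturation was also read within each library, as the log2 ratio of the footprint counts of 2 subunits, which does not depend on the scaling of libraries. *Grin2a* over *Grin2b* was -1.62, -0.99 and -1.41 in cKO and -0.91, -0.57 and -0.28 in control cerebella, a log2 difference of -0.75, or 1.69-fold lower in the mutants. Every cKO value was below every control value, and the two-sided exact permutation test gave p = 0.1, the smallest that 3 against 3 allows, and 0.2 after Benjamini-Hochberg adjustment over the 4 ratios computed. With cKO replicate 2 as the only mutant the difference was -0.40.

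Genes of the same synapses gave no call either, namely those for transmitter synthesis and transport, receptor anchoring, auxiliary subunits and scaffolds, and 16 related receptors outside the rule. Of these 67 partners 65 were tested by edgeR and none was called, where 0.0624% of all genes were. An unadjusted p under 0.05 was found for 14, 2 of them higher and 12 lower, against 13.4% of all genes tested. The median log2 fold change of the partners was -0.14. The 3 with the smallest p were the postsynaptic scaffold *Homer3* (162, 248 and 194 against 389, 397 and 266 CPM), the astrocytic GABA transporter *Slc6a11* (354, 141 and 419 against 113, 144 and 119) and the glycine receptor subunit *Glra2* (52.2, 44.9 and 55.4 against 23.6, 27.8 and 40.6). *Slc6a11* had the library order seen for *Gabra5*, with cKO replicate 2 at the level of the controls.

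Marker lists of cell types were read beside these values. Of all genes tested, 0.0624% were called and 13.4% had an unadjusted p under 0.05. All 10 granule cell progenitor markers were tested and 2 were called higher, *Insm1* and *Sfrp1*, with 9 of 10 at an unadjusted p under 0.05, all higher. The summed level of the list was 503.3 to 741.6 CPM in cKO and 247.8 to 267.3 CPM in control cerebella. *Sfrp1* was at 96.8, 83.5 and 82.4 CPM against 30.8, 28.97 and 35.0 (log2 fold change 1.47, adjusted p = 0.0128), and *Insm1* at 129, 106 and 125 CPM against 38.6, 49.1 and 47.0 (1.42, adjusted p = 0.0154). Of 9 Purkinje cell markers none was called and 8 had an unadjusted p under 0.05, all lower. Their sum was 6103 to 8250 CPM in cKO and 8310 to 15560 CPM in control cerebella, with control replicate 3 the lowest control. Mature granule cell markers summed to 2851 to 4032 CPM against 3751 to 6265, with 3 of 9 at an unadjusted p under 0.05, all lower, and interneuron markers to 2104 to 2553 CPM against 2824 to 4035, with 4 of 9, all lower. None of the genes on these 4 lists was at 0. The pan-neuronal sum was lower in every cKO than in every control cerebellum, with no call and 1 of 7 genes at an unadjusted p under 0.05. On the astrocyte, oligodendrocyte, microglia, endothelial and fibroblast lists edgeR called no gene, with 2 of 8, 3 of 8, 2 of 5, 1 of 4 and 0 of 8 at an unadjusted p under 0.05. The oligodendrocyte sum was also lower in every mutant, at 8041 to 10230 CPM in cKO and 10610 to 12160 CPM in control cerebella. The sums of the others overlapped, at 5779 to 6404 against 5175 to 6782 CPM for astrocytes, 298.0 to 347.3 against 239.4 to 307.0 for microglia, 253.5 to 263.5 against 248.4 to 404.8 for endothelium and 2114 to 3805 against 1831 to 5372 for fibroblasts. Their part in the values of *Gabra2*, *Gabrb2* and the other subunits was not tested.

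In embryos 5 subunits had enough footprints to test, and edgeR called none, where 1.87% of all genes were called. DESeq2 called 3.78% of all genes and none of these subunits, and 2 of 5 had an unadjusted p under 0.05, against 18.6% of all genes. *Gria3*, the AMPA subunit with the highest level there, was at 12.8, 16.1 and 19.9 CPM in *Hbs1l* -/- and 8.69, 11.7 and 8.85 CPM in wild-type embryos (0.71 on the log2 scale, SE 0.29, adjusted p = 0.218). *Grik5* was at 3.68, 3.52 and 3.99 CPM against 6.32, 10.1 and 8.15, a log2 fold change of -1.15 (SE 0.39, adjusted p = 0.141). The groups were separate for both genes, as for 11.4% of all genes with higher and 12.3% with lower values in every mutant. *Gabrg1* was at 10.3, 11.3 and 6.53 CPM against 2.77, 9.38 and 1.77 and overlapped (0.95, SE 0.50, adjusted p = 0.318), and it was at 2.06 without wild-type replicate 2. The list of embryonic markers summed to 5408 to 12370 CPM in mutant and 15240 to 19260 CPM in wild-type embryos, and the fibroblast list to 1986 to 2530 against 2595 to 3376 CPM. Both sums were lower in every mutant, and their part in these values was not tested.

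Whether the mutant effect differed between embryo and cerebellum was tested as an interaction, which edgeR called for 0.732% of genes and, among subunits, for *Grik5*. Of 26 subunits in that fit only 5 had enough embryonic footprints to test in embryos, *Grik5* and *Gria3* among them, and the other 21 entered it through the cerebellum. The deletions also differ, being constitutive in embryos and bound to Atoh1-Cre in cerebella, beside strain, age and batch, and these cannot be told apart. *Grik5* footprints were at 44.1, 62.0 and 50.3 CPM in cKO and 42.5, 37.1 and 47.7 CPM in control cerebella, with the embryo values above. The effect in embryos was lower than that in cerebella by a log2 difference of -1.46 (SE 0.31, adjusted p = 0.0473). This call was close to the threshold and was lost in 13 of 16 alternatives. *Gria3* gave 1.15 (SE 0.33, adjusted p = 0.111).

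In MEFs many genes differed between mutants and controls, and the subunits were read against that background. Between pools, control footprint libraries with the same replicate number had a chi-square per gene of 1.10 to 1.19, close to the value of 1 that counting alone gives, and those with different numbers 4.07 to 11.7. The pools thus hold near-identical controls, and the 3 RNA comparisons use the same control libraries. The comparisons below are therefore not independent of each other. For footprints edgeR called 4 of 12 subunits with *Hbs1l* loss, where 34.1% of all genes were called, 4 of 11 with *Pelo* loss (44.1%) and 2 of 12 in the MEFs labelled *Upf2* cKO (43.4%). For RNA it called 4 of 16 with *Hbs1l* loss (23.1%), 2 of 13 with *Pelo* loss (32.1%) and 4 of 16 in the MEFs labelled *Upf2* cKO (20%). The share of subunits called was 25% in RNA both with *Hbs1l* loss and in the MEFs labelled *Upf2* cKO, slightly above that of all genes, and 15.4% to 36.4% in the others, below that of all genes in each.

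The pan-neuronal sum in footprints was 77.8 to 83.6 CPM with *Hbs1l* loss and 104.8 to 120.5 CPM in its controls, lower in every mutant, and its part in the subunit values was not tested.

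*Gria3*, the subunit fibroblasts translate most, fell with *Hbs1l* loss from 121, 135 and 126 to 114, 101 and 112 CPM in footprints (log2 fold change -0.23, SE 0.07, adjusted p = 0.0308). With *Pelo* loss it fell to 95.8, 88.8 and 91.2 from 118, 140 and 128 CPM (-0.49, SE 0.08, adjusted p = 0.000556), and in the MEFs labelled *Upf2* cKO to 95.6, 96.2 and 92.1 from 129, 136 and 128 CPM (-0.47, SE 0.06, adjusted p = 0.000161). Mutant and control footprints did not overlap in any of the 3 pools, whose controls are near-identical. The share of all genes without overlap is not given for MEFs, so this adds nothing to the calls. Its RNA fell as well. It was at 13.6, 16.4 and 13.6 CPM with *Hbs1l* loss against 21.2, 25.4 and 21.8 (-0.64, SE 0.13, adjusted p = 0.00785), and at 15.4 and 13.3 CPM with *Pelo* loss against 20.8, 25.8 and 21.7 (-0.66, SE 0.14, adjusted p = 0.0111). The MEFs labelled *Upf2* cKO were at 17.7, 15.1 and 13.4 CPM (-0.59, SE 0.15, adjusted p = 0.0181). Some of these edgeR calls were lost with a library left out, while the fold changes stayed negative. For footprints with *Hbs1l* loss the adjusted p was 0.115 without mutant replicate 2, 0.0508 without control replicate 1 and 0.1001 without control replicate 2. For RNA it was 0.0943 without *Pelo* mutant replicate 2, which leaves 1 mutant library that is assumed to vary like the controls, and in the MEFs labelled *Upf2* cKO 0.067 without mutant replicate 2 and 0.0815 without control replicate 2. By transcript, 48.9% to 68.8% of the *Gria3* TPM (a transcript's level scaled for its length and the library size) in control RNA was on models annotated as retained introns, and 42.7% to 59.8% in the mutants.

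*Gabrb1*, a beta subunit, was called lower in footprints in every mutant comparison, and in RNA with *Hbs1l* loss only. Its footprints fell to 4.68, 4.86 and 5.51 from 9.64, 11.3 and 9.74 CPM with *Hbs1l* loss (-1.03, SE 0.17, adjusted p = 0.00037), and to 2.21, 3.04 and 1.73 from 8.80, 9.60 and 8.82 CPM with *Pelo* loss (-1.99, SE 0.21, adjusted p = 5.65e-05). In the MEFs labelled *Upf2* cKO they were at 2.03, 3.58 and 5.24 against 11.04, 10.7 and 12.1 CPM (-1.61, SE 0.23, adjusted p = 0.000209). The RNA fell with *Hbs1l* loss, to 1.30, 1.62 and 2.05 from 5.29, 4.98 and 3.72 CPM (-1.46, SE 0.22, adjusted p = 0.00302). With *Pelo* loss the RNA was at 4.90 and 4.38 CPM against 5.20, 5.07 and 3.71 (0.01, SE 0.19, adjusted p = 0.964), and in the MEFs labelled *Upf2* cKO it gave -0.07 (SE 0.20, adjusted p = 0.835). The difference between footprint and RNA effects was not tested.

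**Figure D4:**
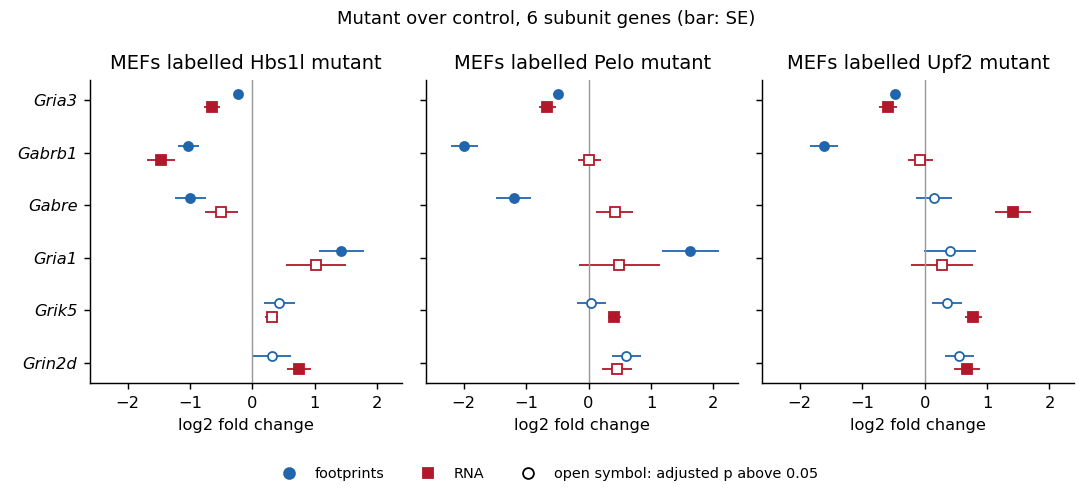
Log2 fold change with standard error of footprints and of RNA in *Hbs1l*, *Pelo* and labelled *Upf2* mutant MEFs for 6 subunits, with open symbols for an adjusted p above 0.05. *Gabrb1* footprints fall by 1.03 to 1.99 in the 3 mutants, while its RNA passes the test with *Hbs1l* loss and gives 0.01 and -0.07 in the others.

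*Gabre*, the epsilon subunit, fell in footprints to 2.45, 2.18 and 2.4 from 5.30, 5.26 and 3.57 CPM with *Hbs1l* loss (-0.99, SE 0.25, adjusted p = 0.00708) and to 2.15, 3.04 and 1.46 from 5.99, 4.55 and 4.46 CPM with *Pelo* loss (-1.20, SE 0.28, adjusted p = 0.00647). In the MEFs labelled *Upf2* cKO the footprints gave 0.16 (SE 0.29, adjusted p = 0.693) and the RNA rose, to 4.20, 2.29 and 3.71 from 1.24, 1.69 and 0.97 CPM (1.42, SE 0.29, adjusted p = 0.0071). *Gria1*, an AMPA subunit at the edge of detection in fibroblasts, rose in footprints to 2.66, 3.02 and 1.51 from 0.868, 0.915 and 0.804 CPM with *Hbs1l* loss (1.42, SE 0.36, adjusted p = 0.00778) and to 2.09, 1.58 and 4.65 from 1.14, 0.732 and 0.891 CPM with *Pelo* loss (1.63, SE 0.46, adjusted p = 0.0152). Mutant and control values were separate in all of these called comparisons of *Gabre* and *Gria1*. They were picked as called and the share of all genes that were separate is not given, so nothing more is read from it. The *Gria1* call with *Pelo* loss was lost without mutant replicate 3, the highest of its libraries, where the log2 fold change dropped to 0.996 (edgeR, adjusted p = 0.0517), and without control replicate 2 or 3 (adjusted p = 0.0598 and 0.0511). With *Hbs1l* loss it was at the threshold without mutant replicate 1 (edgeR, adjusted p = 0.05001).

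Of the other calls in MEFs, those of *Gabra2* and *Grin2d* were on low counts or close to the threshold. *Gabra2* RNA fell with *Hbs1l* loss on 3, 10 and 5 estimated reads against 7, 11 and 27 (-1.68, SE 0.35, adjusted p = 0.0104). *Grin2d* RNA rose to 2.79, 2.93 and 2.60 from 1.31, 1.86 and 1.76 CPM with *Hbs1l* loss (0.74, SE 0.19, adjusted p = 0.0247) and to 2.59, 2.73 and 2.78 CPM in the MEFs labelled *Upf2* cKO (0.68, SE 0.21, adjusted p = 0.0397). The *Gabra2* call was lost with DESeq2 (adjusted p = 0.0596). The edgeR calls of *Grin2d* were lost in 5 alternatives with *Hbs1l* loss, 4 of them a library left out, and in 7 in the MEFs labelled *Upf2* cKO, which include each single library left out, with adjusted p values up to 0.0847 and 0.112.

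*Grik5* has transcripts annotated as targets of nonsense-mediated decay. Its RNA rose to 21.5, 26.5 and 28.9 CPM in the MEFs labelled *Upf2* cKO from 15.5, 15.1 and 14.2 in controls (0.78, SE 0.14, adjusted p = 0.00357) and to 19.1 and 19.9 CPM with *Pelo* loss (0.41, SE 0.10, adjusted p = 0.0202). With *Hbs1l* loss it was at 19.97, 17.1 and 17.5 CPM (0.31, SE 0.11, adjusted p = 0.0737). The call with *Pelo* loss was lost with either mutant library left out (edgeR, adjusted p = 0.0925 and 0.167), where 1 mutant library remains and the spread comes from the controls alone, and also without control replicate 3 (adjusted p = 0.0583), without the filter and with the replicate block. Its footprints gave 0.36 (SE 0.24, adjusted p = 0.242) in the labelled *Upf2* cells, 0.05 (SE 0.23, adjusted p = 0.893) with *Pelo* loss and 0.43 (SE 0.25, adjusted p = 0.202) with *Hbs1l* loss.

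One of them, *Grik5-207*, was at 2.53, 2.55 and 2.41 TPM in the MEFs labelled *Upf2* cKO and at 1.12, 1.19 and 0.775 TPM in controls, a 2.43-fold higher mean (two-sided exact permutation test, p = 0.1, the smallest possible). It was at 2.94 and 1.37 TPM with *Pelo* loss, 2.1-fold (exact permutation test, p = 0.2, the smallest possible with 2 against 3), and at 1.25, 1.45 and 1.27 TPM with *Hbs1l* loss, 1.29-fold (exact permutation test, p = 0.1). Every mutant value was above every control value. Transcripts of this class made up 34.8% to 50.1% of the *Grik5* TPM in the labelled *Upf2* cells, 17.4% to 32.0% in controls, 21.5% to 54.6% with *Pelo* loss and 20.9% to 38.2% with *Hbs1l* loss, and the shares with *Pelo* and with *Hbs1l* loss overlapped those of controls. *Grik5-202*, also of this class, was at 0.188 to 0.231 TPM in the labelled *Upf2* cells and 0 to 0.4 TPM in controls. The coding transcript *Grik5-201* was at 2.46, 4.06 and 3.72 TPM against 2.06, 2.26 and 2.76 and overlapped.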

How the data were processed

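For footprints, the authors deposited whole-number counts per gene. According to their methods, reads on ribosomal RNA, snoRNA and tRNA were removed with Bowtie2 2.2.3, the rest were mapped with HISAT2 2.1.0 to mm10 with a Gencode M24 annotation, and featureCounts counted reads in coding sequence. Per transcript, kallisto 0.42.4 gave the estimated counts and TPM values that the authors deposited for RNA. TPM values are scaled by transcript length and library size, and estimated counts are not.

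Transcript counts were added up for each gene and rounded to whole numbers. Tests used only the libraries being compared and were run in edgeR 4.0.16 under R 4.3.3 (default filter on low counts, TMM factors, quasi-likelihood test, Benjamini-Hochberg adjustment over all genes tested, threshold 0.05), with histone genes left out of footprint tests as in the methods. *Pelo* RNA has 2 libraries because the study set aside an outlier. CPM use TMM-scaled library sizes, and FPKM also divide by the union of coding exons. Ratios had 0.5 added to each count. All 30 gene identifiers, versions included, were found in Gencode M21 of GRCm38, which gave coordinates and sequences, and 3 of these genes, with the 3 ratios that use them, are not reported here. Scripts were tested on simulated data.

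The subunits and the lists were chosen with earlier results of these data known. The genes named are all subunits, the targeted genes and, from the lists of synaptic partners and cell markers, those called or else the 3 with the smallest p, and *Slc6a4*, *Dbh* and the brainstem and midbrain list were added after values were seen. Replicates are separate cerebella, pools of embryos or single embryos per MEF culture. Alternatives were DESeq2 1.42.0, RLE factors, no filter on low counts, the replicate number as a block, other pseudocounts, lengths and thresholds, and each replicate left out.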

Additional observations from a re-analysis of the deposited data

Results flagged for a closer look

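*Grik5*, the kainate receptor subunit, was picked out because its mutant effects in a pair of tissues differed by a test of the difference itself. The log2 difference, embryo effect minus cerebellum effect, was -1.46 (SE 0.31, adjusted p = 0.0473 from edgeR). All 3 *Hbs1l* -/- embryos were below all 3 wild-type embryos, whereas the cKO and control cerebella overlapped. Over the alternatives the adjusted p ran from 0.00714 (DESeq2) to 0.167 (without wild-type embryo replicate 2), and the difference kept its sign, between -1.60 and -1.17. The call was close to the threshold and was lost in 13 of the alternatives. The 2 tissues also differ in strain, age, batch and deletion, which is constitutive in embryos and bound to Atoh1-Cre in cerebella.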

How the results depend on the processing

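In cerebella the number of genes called moved from 9 to 484 with DESeq2, 16 without the filter and 0 with cKO replicate 2 as the only mutant, which has no spread of its own and is no test, and leaving out single replicates gave 0 to 560. The number of subunits called there moved from 0 to 2 with DESeq2 and lay between 0 and 2 when a replicate was left out. In embryos 214 genes became 432 with DESeq2 and 703 without the filter, and 28 to 2309 with a replicate left out. For the difference between embryo and cerebellum effects, 107 genes became 581 with DESeq2 and 8 to 1123 with a replicate left out. The single subunit called, *Grik5*, became 2 subunits with DESeq2, 0 with RLE factors, 0 without the filter and 0 to 2 with a replicate left out. In the MEFs labelled *Upf2* cKO, 2 subunits were called by footprints and 2 to 3 with a replicate left out. In RNA, the range with a replicate left out was 1817 to 2663 genes and 2 to 4 subunits for *Hbs1l* loss, 1506 to 4802 and 0 to 2 for *Pelo* loss (lowest with 1 mutant library, assumed to vary like the controls), and 1800 to 3201 and 2 to 3 in the MEFs labelled *Upf2* cKO. The 5 subunits at 1 FPKM in the *Hbs1l* and in the *Upf2* control pool became 8 in each at 0.5 FPKM. The cause was not tested for any of these shifts.

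With cKO replicate 2 as the only mutant, a library picked after its values were seen so that no test follows from it, the cerebellar log2 fold change took the other sign for *Gabra3* (-0.41), *Gabra5* (-1.995), *Gabre* (-1.09), *Gabrg3* (-0.89), *Gabrq* (-0.77), *Gabrg1* (-0.21), *Gabrd* (0.30), *Grik3* (0.041) and *Grin3b* (0.18). With a replicate left out, the fold change of *Gabra4* ran from -0.20 to 0.21, *Gabrd* from -0.45 to 0.19, *Grik3* from -0.28 to 0.0059 and *Grin3b* from -0.20 to 0.052 in cerebella. That of *Gria4* in embryos ran from -0.17 to 0.15 and that of *Gabre* between control tissues from -0.79 to 0.45. None of these was a called value.

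Replicate numbers were not used to pair the samples in the main tests. No comparison had a correlation above 0.1 for every pair of same-numbered libraries (in cerebella 0.22, -0.24 and 0.04), which cannot exclude pairing. With the number as a block, the cerebellum kept 0 subunits and had 0 genes called, embryos had 564 genes, *Pelo* RNA 2955 genes and 1 subunit, and the difference between tissues 0 subunits. The block left the log2 ratio of *Grin2a* to *Grin2b* at -0.75. In wild-type embryos 8 of 27 subunits had no footprint and 6 more had 1 to 3 in all, too few to detect a change at this depth.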
